A study of Mus musculus with 11 samples.

Results

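The genes of oxidative phosphorylation were followed in poly(A) RNA-seq of mouse embryonic stem cells (mESCs) and mouse embryonic fibroblasts (MEFs), each WT (Atxn7l3+/+) or Atxn7l3-/-, all of strain DBA/2 x C57BL/6. Members were the protein-coding genes named Nduf, Uqcr, Cox4 to Cox8, Atp5 or mt-, together with Sdha, Sdhb, Sdhc, Sdhd, Cyc1 and Cycs. They numbered 102 of the 31518 genes listed for mESCs and 102 of the 29450 listed for MEFs, 101 of them in both tables and 103 in either. Of the 103, 95 are nuclear and 8 are encoded by mitochondrial DNA (mtDNA). The nuclear members are 36 subunits of complex I, 4 of complex II, 9 of complex III, 19 of complex IV (here with Ndufa4 and Ndufa4l2), 15 of complex V, cytochrome c, 8 complex I assembly factors (Ndufaf genes) and 3 associated proteins (Atp5s, Atp5sl and Cox7a2l). The 11 libraries were 2 of WT mESCs, 3 of Atxn7l3-/- mESCs, and 3 of each genotype of MEFs.

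ATXN7L3 is the adaptor of the SAGA deubiquitylation module, which removes ubiquitin from histone H2B. The null allele came from a targeting construct with loxP sites around exons 2 to 12, recombined in the germ line, so every cell of an Atxn7l3-/- embryo carries it. mESCs came from single blastocysts and were grown with leukaemia inhibitory factor and inhibitors of the MEK and GSK3 kinases, after early passages on feeder cells. MEFs came from E10.5 embryos without head and gut, so they hold whatever cell types of the trunk grew out. Bulk RNA cannot tell fewer cells of a type from less RNA per cell.

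Oxidative phosphorylation passes electrons from NADH (complex I) and succinate (complex II) through complex III, cytochrome c and complex IV to oxygen, and complex V uses the resulting proton gradient to make ATP. Complexes I, III, IV and V are built from proteins of both genomes, and complex II from nuclear proteins only. Transcription of mtDNA runs through a polymerase and factors of its own, while many nuclear subunit genes carry promoter motifs for NRF1, ETS factors such as GABP, YY1 and SP1. Embryonic stem cells rely heavily on glycolysis, and the respiratory chain is expanded as cells differentiate.

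Several mtDNA genes have near-identical copies in the nuclear genome, which bears on how their levels can be read, so 1 stretch of such a pair is shown first. Of the 13 protein-coding genes of mtDNA, 7 are listed for mESCs, mt-Co2 is added for MEFs, and the other 5 (mt-Atp6, mt-Atp8, mt-Co3, mt-Nd3 and mt-Nd4l) were not analysed here. Every 50-base window of mt-Co2, a core subunit of complex IV, also occurs in another annotated gene, chiefly the chromosome 1 pseudogene Gm28661. The opening 60 bases of mt-Co2 (chrM:7013-7072, plus strand, mm10) and the stretch of Gm28661 (chr1:24615506-24615565, minus strand) differ at 0 positions. Capitals would mark differences, and there are none.
mt-Co2: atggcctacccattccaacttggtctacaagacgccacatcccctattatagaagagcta
Gm28661: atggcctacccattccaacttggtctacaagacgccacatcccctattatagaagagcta

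mt-Co2 had a count of 1 in MEF Atxn7l3-/- replicate 1 and 0 in the other 5 MEF libraries. Gm28661 had counts of 0 to 6 in mESCs and 2 to 12 in MEFs, so neither copy of this sequence carried reads to speak of. The same share of windows was 97.993% for mt-Nd3, 98.8% for mt-Nd4l, 99.5% for mt-Atp6 and 99.9% for mt-Co3, but 0% for mt-Atp8, which is not listed either. It was 0% for mt-Cytb, mt-Nd1 and mt-Nd6, 7.61% for mt-Nd5, 8.19% for mt-Nd2, 51.1% for mt-Co1 and 62.2% for mt-Nd4. Of the listed mtDNA genes, mt-Co2 thus has no unique window, mt-Co1 and mt-Nd4 are unique over only part of their length, and the other 5 over at least most of it. Why genes are unlisted was not tested.

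The same holds for cytochrome c, the mobile electron carrier between complexes III and IV. The first 60 coding bases of Cycs (chr6:50565601-50565660, minus strand) and the matching stretch of the single-exon gene Gm10053 (chr19:24875753-24875812, plus strand) also differ at 0 positions.
Cycs: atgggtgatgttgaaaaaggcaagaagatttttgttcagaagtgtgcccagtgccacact
Gm10053: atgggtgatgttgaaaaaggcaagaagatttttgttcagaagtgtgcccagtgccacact

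Cycs shared 28.5% of its windows with other genes and had only 63 to 215 counts per library. In all, 25 of the 95 nuclear members shared at least 10% of their windows with another annotated gene, and Atp5l, a subunit of the membrane part of complex V, shared 84.8%. Windows were compared on both strands with every other annotated gene, so partners include antisense and bidirectional-promoter genes and not only copies elsewhere. Levels of these members are uncertain. The sources used here do not give how reads with several matches, or over more than 1 gene, were handled.

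Levels are given as CPM, counts scaled to the size of each library and normalized by TMM over all 11 libraries, and divided by transcript length in kb where genes are compared. Library totals ranged from 34515342 to 49602605 counts, and 3 counts, taken as the floor, are 0.0605 to 0.0869 CPM. Atxn7l3 was at 197 and 203 CPM in WT mESCs and at 0.833 to 3.34 CPM in Atxn7l3-/- mESCs. In MEFs it was at 86.6 to 117 CPM in WT and still at 55.5 to 73.3 CPM in the libraries labelled Atxn7l3-/-, a log2 fold change of -0.74 ± 0.21 (SE) that did not pass (edgeR adjusted p = 0.0715). These are RNA levels, and the paper reports no detectable ATXN7L3 protein in Atxn7l3-/- mESCs or MEFs. Of the 6 pluripotency markers, the 4 in both tables summed to 1659 to 2260 CPM in WT and 1092 to 1458 CPM in Atxn7l3-/- mESCs. In MEFs they summed to 0.512 to 49.5 CPM. The 7 fibroblast markers summed to 18.6 to 93.2 CPM in WT mESCs, 262 to 379 CPM in Atxn7l3-/- mESCs and 6839 to 41427 CPM in MEFs. In Atxn7l3-/- mESCs Tdgf1 was called lower (1 of 6 pluripotency markers tested) and Col1a1 higher (1 of 5 fibroblast markers tested). The part of these differences in the values of the members was not tested. Replicates 1 and 2 of Atxn7l3-/- mESCs had the Y-linked Ddx3y at 2.96 and 0.793 CPM, against 80.5 to 192 CPM in the other 3 mESC libraries, and replicate 3 of WT MEFs had it at 0.244 CPM, against 66.4 to 270 CPM in the other 5. The Y-linked Uty and Eif2s3y divided the mESC libraries likewise. Kdm5d, also Y-linked, was at 5.92 and 22.8 CPM in WT mESCs and at 0.745, 0.0214 and 0.5855 CPM in Atxn7l3-/- replicates 1 to 3. Xist was at 9.73 and 23.0 CPM in WT and 49.9, 45.9 and 2.39 CPM in Atxn7l3-/- mESCs.

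Per length, the highest mtDNA genes of complexes I, III and IV, and Atp5b, stood above the highest nuclear genes of complexes I to IV. In WT mESCs mt-Nd1 (complex I) stood at 3086 ± 1323 CPM per kb (SD, n = 2), mt-Co1 (complex IV) at 2297 ± 1509 and mt-Cytb (complex III) at 1591 ± 528. The highest nuclear member of each complex there was Atp5b, the catalytic subunit of complex V, at 2534 ± 364 CPM per kb, then Sdha, the flavoprotein of complex II, at 690 ± 69.8, Cox4i1 at 637 ± 73.5, Uqcrc1, a core protein of complex III, at 585 ± 87.4, and Ndufa7 of complex I at 288 ± 62.7. The order of Sdha, Cox4i1 and Uqcrc1 lies within their spread.

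In WT MEFs mt-Cytb was at 3691 ± 283 CPM per kb (SD, n = 3), mt-Nd1 at 2876 ± 583, mt-Co1 at 2463 ± 445 and Atp5b at 1616 ± 358. Cox6b1 led the nuclear genes of complex IV at 761 ± 102 and Sdha those of complex II at 558 ± 21.8. The only mtDNA gene on the light strand, mt-Nd6, was at 76.0 CPM per kb in WT mESCs and 31.7 in WT MEFs, far under the others.

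The first question was whether loss of ATXN7L3 changed these genes in mESCs. Nuclear members stood mostly a little above WT and mtDNA members below, and 1 member passed the test, the complex IV gene Cox6b2. Of 99 members tested, 1 was higher and 0 were lower at an adjusted p of 0.05 or less (edgeR quasi-likelihood test, Benjamini-Hochberg adjustment over 17800 genes), where 6.96% of all genes were called, 3.08% higher and 3.88% lower. At an unadjusted p under 0.05 there were 11 of the 99 members, against 29.8% of all genes. DESeq2 called 4 higher and 1 lower, with 19.2% of all genes called, and a fit without the filter 2 and 2, with 9.63%. Cox6b2 also passed the study's added limits of 2-fold and over 10 normalized reads per kb (4.68% of all genes) and a fit with the replicate number as a block (8.06% of all genes, 4.06% lower).

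Cox6b2, the testis isoform of a subunit at the dimer interface of complex IV, was at 42.5 and 38.0 CPM in WT mESCs and at 81.1, 72.3 and 136 CPM in the Atxn7l3-/- lines. All 3 Atxn7l3-/- libraries lay above both WT libraries. The log2 fold change was 1.31 ± 0.32 (SE), 2.49-fold, with an edgeR adjusted p of 0.0499. It passed in 6 of 17 alternatives, with adjusted p from 0.00216 to 0.271. Its partner Cox6b1, the isoform of most tissues, was at 146 and 176 CPM in WT and 285, 174 and 270 CPM in Atxn7l3-/- mESCs and was not called (log2 fold change 0.65 ± 0.27, edgeR adjusted p = 0.155).

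The median log2 fold change over the 92 nuclear members tested was 0.29, against 0.04 over all genes, and 77 of the 92 were above 0. By complex the medians were 0.30 for complex I, 0.22 for complex II, 0.22 for complex III, 0.66 for complex IV and 0.08 for complex V. Complex IV thus stood highest and complex V nearest to all genes. These offsets came from 2 of the 3 Atxn7l3-/- lines. The median log2 ratio of nuclear members to the WT mean was 0.42 in replicate 1 and 0.30 in replicate 3 but -0.15 in replicate 2, and 82, 69 and 25 of the 92 members were above the WT mean in replicates 1, 3 and 2. Without replicate 2, 9 members were called higher (Atp5e, Cox6b1, Cox6b2, Cox8a, Ndufa13, Ndufa6, Ndufaf6, Ndufb6 and Ndufs8), with 12.8% of all genes called. With 1 of the other libraries left out, 0 to 1 were called: 0.0171% of all genes were called without Atxn7l3-/- replicate 1, 8.63% without replicate 3 and 0% without either WT library.

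**Figure D1:**
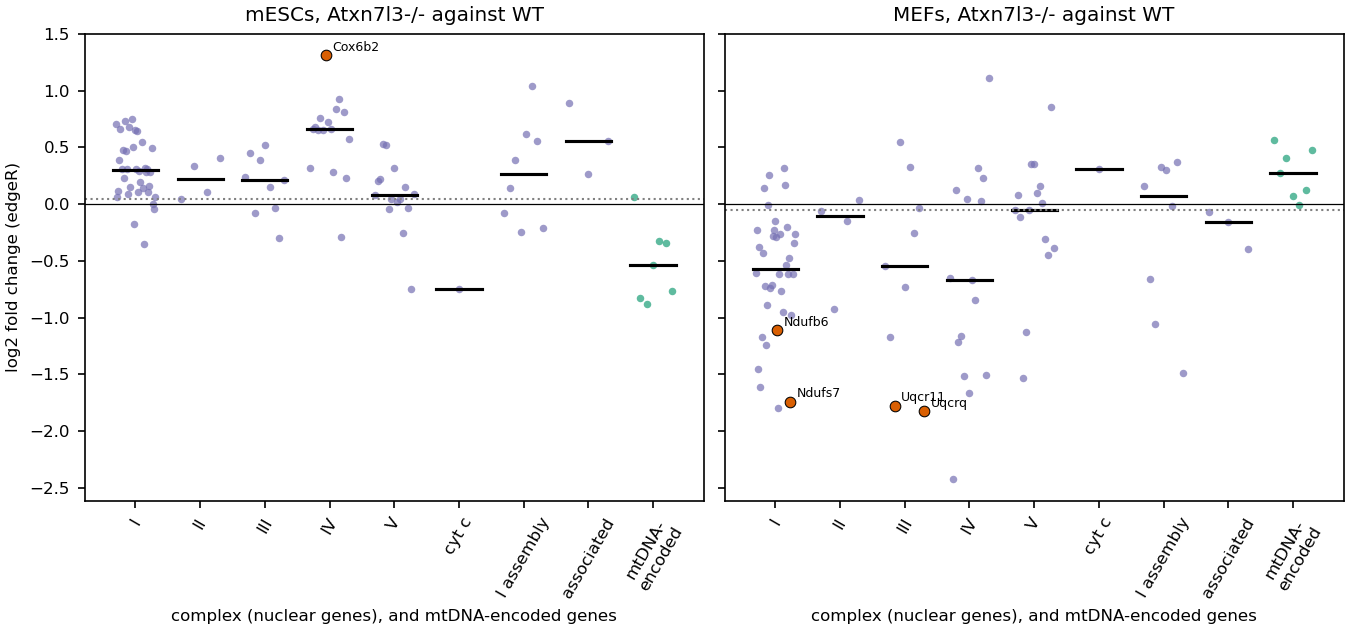
log2 fold change (edgeR) of each member tested, Atxn7l3-/- against WT, in mESCs (left) and MEFs (right), by complex for nuclear genes and together for mtDNA-encoded genes. Bars are medians, the dotted line is the median of all genes tested, and ringed orange points are the members with an adjusted p of 0.05 or less: Cox6b2 in mESCs, and Ndufs7, Ndufb6, Uqcrq and Uqcr11 in MEFs.

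The summed level of the 36 nuclear complex I genes shows the same division of the lines. It was 2212 and 2431 CPM in WT mESCs and 3006, 2073 and 2841 CPM in Atxn7l3-/- mESCs, with replicate 2 under both WT libraries. For nuclear complex IV genes the sums were 1210 and 1386 CPM in WT and 2137, 1384 and 2012 CPM in Atxn7l3-/-. For complex V they were 3781 and 4808 CPM in WT and 5535, 3556 and 4684 CPM in Atxn7l3-/-, so the genotypes overlapped. At the level of single members, 18 of 99 were higher in every Atxn7l3-/- library than in both WT libraries (18.2%, against 23.3% of genes tested) and 10 were lower (10.1%, against 26.4%).

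mtDNA members were mostly under WT in Atxn7l3-/- mESCs, with a median log2 fold change of -0.54 over 7 genes. By edgeR 0 were called, and 2 were at an unadjusted p under 0.05, as were 29.8% of all genes. With the GC trend removed and the replicate block the median was -0.02. mt-Cytb, the only mtDNA subunit of complex III, was at 1393 and 2248 CPM in WT mESCs and at 922, 1149 and 906 CPM in Atxn7l3-/- mESCs. Every Atxn7l3-/- library was under both WT libraries, and the log2 fold change was -0.83 ± 0.25 (SE, edgeR adjusted p = 0.0797). mt-Nd1, which forms part of the membrane arm of complex I, was at 2058 and 3849 CPM in WT and 1195, 1944 and 1506 CPM in Atxn7l3-/- (log2 fold change -0.88 ± 0.31, edgeR adjusted p = 0.112). Its groups also did not overlap.

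mt-Nd2 was at 1164 and 1491 CPM in WT and 569, 1130 and 963 CPM in Atxn7l3-/-, and mt-Nd6 at 31.6 and 47.3 against 30.4, 28.9 and 8.02 CPM. mt-Nd4 (717 and 1140 against 634, 806 and 702 CPM) and mt-Nd5 (805 and 1815 against 1116, 890 and 966 CPM) overlapped. mt-Co1, the catalytic subunit of complex IV, was at 1901 and 5198 CPM in WT and 5674, 2565 and 2435 CPM in Atxn7l3-/-, with log2 fold change 0.07 ± 0.51. The 2 WT libraries of mt-Co1 differed from each other by more than the groups did.

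Together the listed mtDNA genes took 0.935% and 1.73% of all counts in WT mESCs and 1.13%, 0.982% and 0.866% in Atxn7l3-/- mESCs. The difference of the means, -0.341 percentage points, was within the spread of WT (2-sided exact permutation test, p = 0.4, where 2 against 3 libraries cannot go below 0.1). It was 0.0561 without WT replicate 2. Nuclear members took 1.065% and 1.204% in WT and 1.51%, 1.04% and 1.40% in Atxn7l3-/- (2-sided exact permutation test, p = 0.5).

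**Figure D2:**
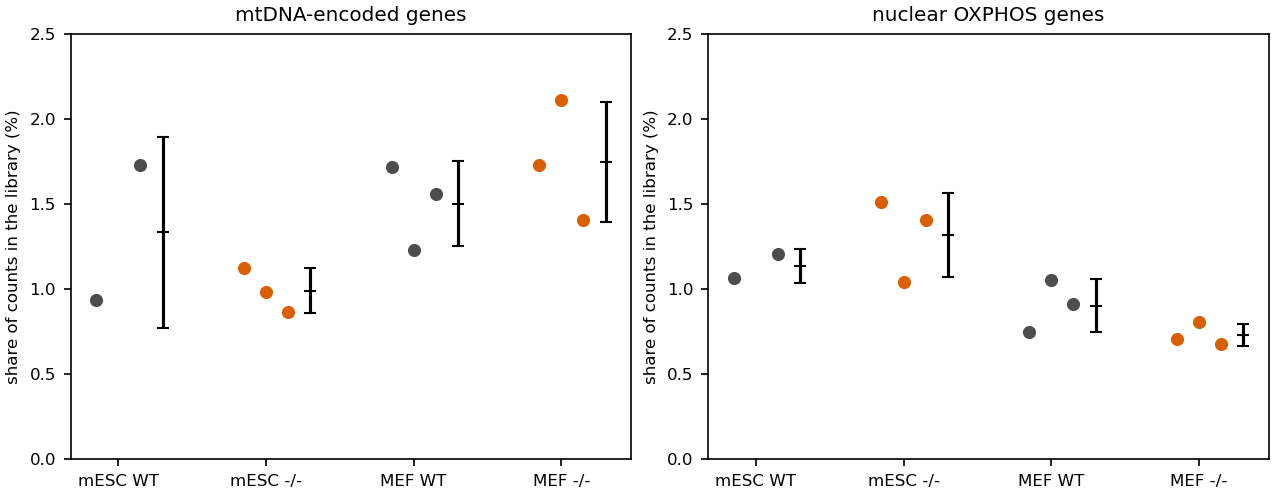
Share of a library's counts (%) that fell on the listed mtDNA-encoded genes (left) and on the nuclear members (right), by cell type and genotype. Points are libraries, and the bar beside them is the mean ± SD (n = 2 for WT mESCs, 3 for the other groups). The 2 genotypes overlap in both panels and in both cell types.

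The 3 members on the X chromosome were all highest in Atxn7l3-/- replicate 1. Ndufb11, an accessory subunit of complex I, was at 46.7 and 51.4 CPM in WT mESCs and 105, 71.2 and 62.9 CPM in Atxn7l3-/- mESCs. Cox7b was at 97.2 and 129 against 273, 172 and 140 CPM, and Ndufa1 at 39.5 and 35.2 against 84.9, 55.4 and 36.5 CPM. Their log2 fold changes were 0.75, 0.84 and 0.71, and none passed (edgeR adjusted p from 0.110 to 0.214). Over the 680 X-linked genes tested the median was 0.47, against 0.03 over the autosomes, and replicates 1 and 2 of Atxn7l3-/- are the libraries with little Ddx3y. The part of the X chromosome in these values was not tested. The 89 autosomal nuclear members had a median of 0.28.

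In MEFs the order of the genomes was the opposite. Nuclear members stood mostly below WT, mtDNA members at or above it, and 4 nuclear members fell, 2 of complex I (Ndufs7 and Ndufb6) and 2 of complex III (Uqcrq and Uqcr11). Of 98 members tested, 4 were lower and 0 higher, where 9.41% of all 15958 genes were called by edgeR, 5.01% higher and 4.39% lower. The 4 also passed the study's added limits, as did 7.6% of all genes. At an unadjusted p under 0.05 there were 32 of 98, against 32.4% of all genes, so the count of members was at the background. DESeq2 called 23 lower and 1 higher, with 24.7% of all genes called. With the replicate number as a block, which the MEF libraries share, 8 were lower (adding Atp5d, Cox6b2, Ndufb7 and Ndufc2), where 14% of all genes were called, 8.49% lower. A fit without the filter called 7 lower, with 6.44% of all genes.

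Ndufs7 (chr10:80249121-80256794), which holds an iron-sulfur cluster next to the quinone site of complex I, was at 22.7, 49.7 and 54.5 CPM in WT MEFs and at 10.7, 10.5 and 16.8 CPM in Atxn7l3-/- MEFs. The groups did not overlap. It fell by 1.74 ± 0.40 on the log2 scale (SE, edgeR adjusted p = 0.0442), 3.34-fold.

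Uqcr11 (chr10:80402997-80406830), a small subunit of complex III, was at 34.6, 68.8 and 67.6 CPM in WT and at 12.4, 13.5 and 24.1 CPM in Atxn7l3-/-. Uqcrq (chr11:53427922-53430831), the ubiquinone-binding protein of complex III, was at 62.7, 108 and 168 CPM in WT and at 27.2, 23.5 and 45.0 CPM in Atxn7l3-/-. In both genes every Atxn7l3-/- library was under every WT library, with WT replicate 1 the lowest of WT. The log2 fold changes were -1.78 ± 0.39 for Uqcr11 and -1.83 ± 0.43 for Uqcrq (SE, edgeR adjusted p = 0.0422 and 0.0463).

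Ndufb6 (chr4:40270591-40279421), an accessory subunit in the membrane arm of complex I, was at 57.0, 71.7 and 98.9 CPM in WT and at 31.9, 39.8 and 34.4 CPM in Atxn7l3-/-. Its log2 fold change was -1.11 ± 0.25 (SE, edgeR adjusted p = 0.0428). Ndufb6 shares 31.6% of its windows with Smim27, so part of its counts may be reads of that gene. The 4 calls rest on few libraries: without WT replicate 2 or 3, or Atxn7l3-/- replicate 1 or 2, no member was called, where 5.23%, 1.2%, 1.51% and 1.71% of all genes were. Without WT replicate 1 there were 2 (2.85% of all genes), and without Atxn7l3-/- replicate 3 there were 8 lower and 1 higher (12.2%). Over these 6 fits Ndufs7 was called in 2, Uqcr11 and Uqcrq in 1 each and Ndufb6 in 0.

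**Figure D3:**
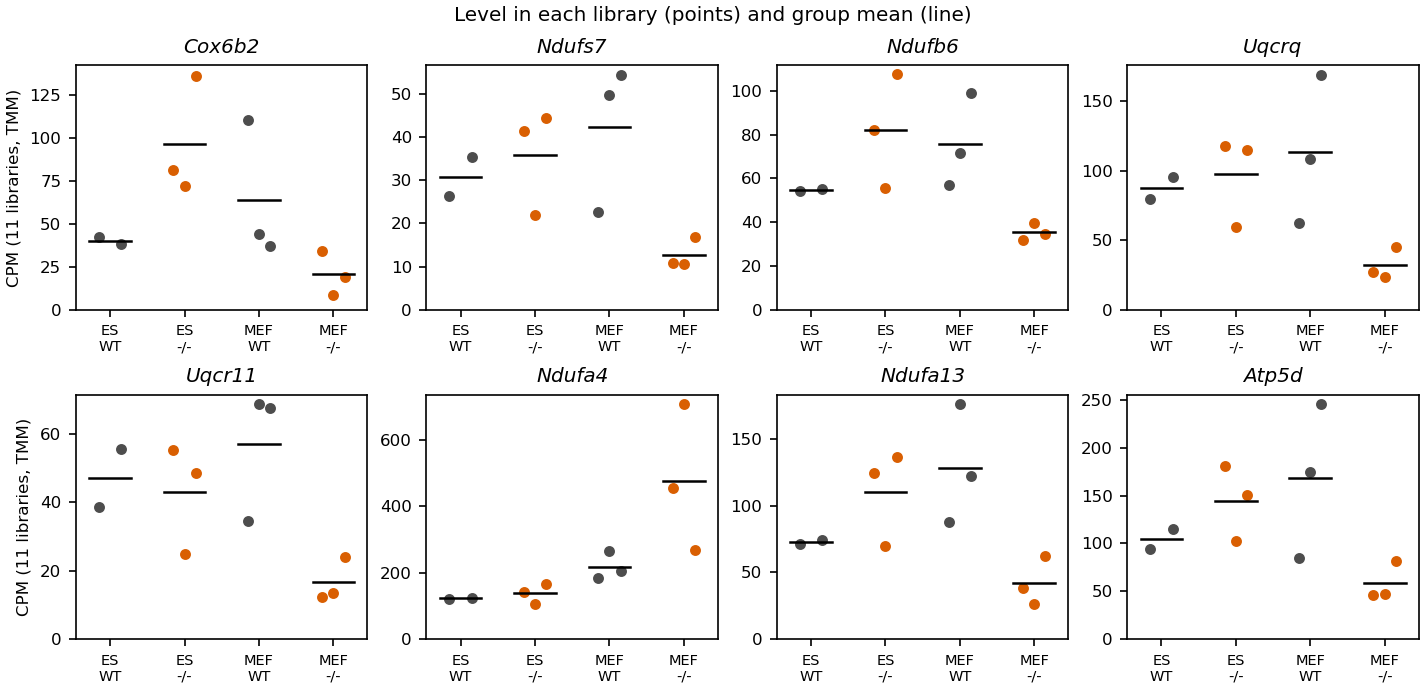
Level in CPM of 8 members in each library: the 5 called in a genotype comparison, Ndufa4, and Ndufa13 and Atp5d, whose genotype effects differed between the cell types. Points are libraries (grey WT, orange Atxn7l3-/-) and lines are group means. In Atxn7l3-/- MEFs the 3 points of Ndufs7, Ndufb6, Uqcrq and Uqcr11 lie under all 3 WT points.

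Stretches of 150 bases just upstream of the RefSeq start are shown for the 3 of the 4 fallen genes that were matched, since subunit genes are known for promoter motifs there (GRCm38.p6; Uqcr11 chr10:80406822-80406971 and Ndufb6 chr4:40279422-40279571, minus strand; Ndufs7 chr10:80249299-80249448, plus strand). By the gene coordinates given above, the stretch of Ndufs7 lies inside the gene, and is upstream of the RefSeq start only. Capitals mark CCGGAAG, an ETS motif, in Uqcr11 and CCGCCC, an SP motif on the other strand, in Ndufb6. Within these 150 bases the 3 share none of the 4 motifs searched, and the stretch of Ndufs7 holds none of them, nor do those of Cox6b2 and Ndufa4.
Uqcr11: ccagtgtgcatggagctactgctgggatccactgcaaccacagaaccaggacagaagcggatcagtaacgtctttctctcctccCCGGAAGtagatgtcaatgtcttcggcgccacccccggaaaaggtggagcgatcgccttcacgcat
Ndufb6: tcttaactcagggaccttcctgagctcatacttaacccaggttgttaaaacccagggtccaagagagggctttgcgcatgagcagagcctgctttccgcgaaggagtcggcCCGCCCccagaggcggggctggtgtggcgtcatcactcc
Ndufs7: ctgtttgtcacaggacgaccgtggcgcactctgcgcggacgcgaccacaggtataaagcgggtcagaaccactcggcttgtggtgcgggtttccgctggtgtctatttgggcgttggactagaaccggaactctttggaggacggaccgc

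In promoter windows of 300 bases, 78 of the 95 nuclear members were matched, with 84 windows. GCATGCG, the core of the NRF1 site, was found on either strand in 16.7% of the members' windows and in 3.58% of all 32851 windows, or 4.44% of the 21262 windows of protein-coding genes. CCGGAAG was found in 21.4% against 8.86% of all and 11.6% of protein-coding windows, and AAGATGG (YY1) in 16.7% against 6.34% and 6.24%. GGGCGG (SP) was found in 44.0% against 35.7% of all but 46.2% of protein-coding windows, so its direction depends on the background. In these longer windows Uqcr11 held the NRF1 and ETS motifs, Ndufb6 ETS and SP, Ndufs7 YY1, Cox6b2 SP and Ndufa4 none. Uqcr11 and Ndufb6 thus share the ETS motif there. These letters describe the windows and not binding.

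By complex, the median log2 fold changes in MEFs were -0.57 for nuclear complex I, -0.10 for complex II, -0.55 for complex III, -0.67 for complex IV and -0.05 for complex V, against -0.06 over all genes. Of the 36 complex I genes, 32 were below 0 and 15 were lower in every Atxn7l3-/- library than in every WT library. Over all members, 33 of 98 were lower without overlap (33.7%, against 19.7% of genes tested) and 5 were higher (5.1%, against 20%): Atp5g1, Atp5l, Cycs, Ndufa4 and mt-Co1. Complex V held both kinds. Atp5d, the delta subunit of its stalk, was at 84.9, 175 and 246 CPM in WT and 46.5, 47.2 and 81.3 CPM in Atxn7l3-/- (log2 fold change -1.53 ± 0.43, edgeR adjusted p = 0.0688), while Atp5b was at 990, 1199 and 1535 against 1190, 1490 and 1282 CPM.

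Summed over its 36 nuclear genes, complex I was at 1947, 3292 and 2679 CPM in WT MEFs and at 1842, 1974 and 1882 CPM in Atxn7l3-/- MEFs. WT replicate 1 lay beside the Atxn7l3-/- libraries. Its nuclear members had a median log2 ratio of -0.39 to the WT mean, against 0.27 and -0.04 in WT replicates 2 and 3 and -0.31, -0.25 and -0.46 in Atxn7l3-/- replicates 1 to 3. Nuclear complex IV genes summed to 1365, 1939 and 1845 CPM in WT and 1592, 1972 and 1379 CPM in Atxn7l3-/- MEFs. Those of complex V summed to 2581, 3916 and 3785 against 2990, 3698 and 3014 CPM. The genotypes overlapped in both sums, although the median of complex IV was the lowest.

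Ndufa4, a complex IV subunit once assigned to complex I, had the highest log2 fold change of the members in MEFs. It was at 185, 265 and 203 CPM in WT MEFs and at 456, 706 and 268 CPM in Atxn7l3-/- MEFs. No library overlapped, yet replicate 3 was close to WT, and the log2 fold change of 1.11 ± 0.37 did not pass (edgeR adjusted p = 0.0956). It had the highest level per length of nuclear complex IV genes in Atxn7l3-/- MEFs, 1019 ± 470 CPM per kb (SD, n = 3).

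mtDNA members in MEFs had a median log2 fold change of 0.27, and 0 of 7 were called. mt-Co1 was at 4274, 3016 and 4125 CPM in WT and 5795, 6904 and 4402 CPM in Atxn7l3-/- (log2 fold change 0.56 ± 0.35, edgeR adjusted p = 0.297). mt-Cytb was at 4343, 3856 and 4469 against 4997, 6364 and 4119 CPM, and mt-Nd1 at 2827, 2161 and 3268 against 3409, 4775 and 2905 CPM. mt-Nd2, mt-Nd4, mt-Nd5 and mt-Nd6 had log2 fold changes from -0.01 to 0.48. The mtDNA genes took 1.72%, 1.23% and 1.56% of counts in WT and 1.73%, 2.11% and 1.41% in Atxn7l3-/- (difference of means 0.248 percentage points, 2-sided exact permutation test, p = 0.4, lowest possible 0.1). Of the counts on members alone the mtDNA genes took 69.7%, 53.8% and 63.1% in WT and 71.0%, 72.4% and 67.5% in Atxn7l3-/-.

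The log2 fold changes of MEFs followed the base composition of the transcripts. Across the 91 nuclear members tested, Spearman's rho between log2 fold change and GC content was -0.682 (Pearson's r -0.690), and it was -0.393 over 15944 genes. The points share the 6 libraries, and no test was made. The 30 members of lowest GC content (39.9 to 49.1%) had a median of 0.05, the middle 31 of -0.29 and the 30 of highest GC content (54.0 to 61.4%) of -1.02. With each library's GC trend removed, the medians were -0.28 for nuclear and -0.25 for mtDNA members, so the offset between the 2 genomes was gone and the mtDNA median changed sign. The members then called lower were Ndufa1, Ndufb6, Ndufc2 and Uqcr11, 2 of the 4 as fitted. Removal works on each library separately, so a genotype difference that follows GC content is removed as well. The source of the trend was not tested. In mESCs rho was 0.181 over 92 nuclear members, and the medians were 0.22 and -0.20 after removal of the trend.

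**Figure D4:**
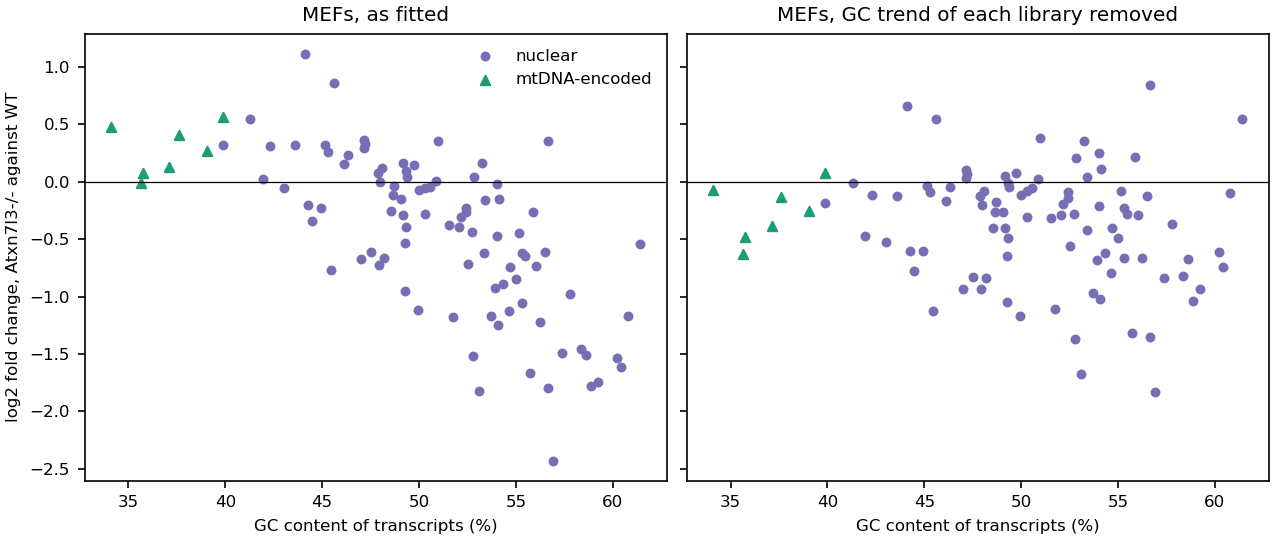
log2 fold change of each member in MEFs (vertical axis) against the GC content of its transcripts in percent (horizontal axis), as fitted (left) and with each library's GC trend removed (right). Circles are nuclear and triangles mtDNA-encoded genes. On the left the nuclear members slope down from low to high GC content, with rho -0.682, and on the right rho is -0.206.

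Markers of epithelium or mesothelium, striated muscle and pericytes moved with genotype in MEFs. The 6 markers of epithelium or mesothelium summed to 12.5 to 33.5 CPM in WT and to 2285 to 3549 CPM in Atxn7l3-/- MEFs, with Upk3b, Msln and Krt18 called higher (3 of 5 tested) and Epcam at 0.119 CPM in WT and 0.0518 in Atxn7l3-/-. The 7 markers of striated muscle summed to 57.7 to 154 CPM in WT and 15.2 to 20.3 CPM in Atxn7l3-/- (Myh3 and Acta1 called lower, 2 of 6 tested), with Myod1 at 0.00853 CPM in Atxn7l3-/-. The 3 of 5 pericyte markers that are in both tables summed to 135 to 206 CPM and 3.04 to 31.6 CPM (Rgs5 called lower, 1 of 4 tested). The 3 of 6 macrophage markers that are in both tables summed to 449 to 883 CPM in WT and 793 to 5785 CPM in Atxn7l3-/-, with 0 of 6 called. The genotypes thus overlapped, and the 3 markers differed. Group means in WT and Atxn7l3-/- were 516 and 2717 CPM for Lyz2, 33.7 and 65.3 for Cd68, and 138 and 128 for Csf1r. The part of these cell types in the values of the members was not tested.

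Of the complex IV isoforms known from particular tissues, Cox4i2 and Cox6a2 were low in both cell types and Cox6b2 was not. Cox4i2, the isoform of lung and pericytes, was at 0.510, 1.91 and 0.415 CPM in WT MEFs and 0.133, 0.205 and 0.180 CPM in Atxn7l3-/- MEFs, a log2 fold change of -2.43 ± 0.73 that did not pass (edgeR adjusted p = 0.0791). Its common partner Cox4i1 was at 313, 477 and 409 against 234, 211 and 322 CPM. The muscle isoform Cox6a2 was at 0.490, 1.5002 and 0.415 against 0.292, 0.154 and 0.389 CPM. In WT MEFs both genes were highest in replicate 2, the library with the lowest summed muscle (154, 57.7 and 90.1 CPM in replicates 1 to 3) and pericyte markers (206, 135 and 170 CPM). Single markers differed. Abcc9 of the pericyte list (1.31, 6.97 and 2.95 CPM) and Des of the muscle list (23.3, 24.9 and 12.0 CPM) were highest in replicate 2. The other markers in these sums were not. The part of these cell types in the isoform levels was not tested. Cox6b2 went opposite ways in the 2 cell types, with 111, 43.8 and 37.1 CPM in WT MEFs and 34.0, 8.65 and 19.3 CPM in Atxn7l3-/- MEFs (log2 fold change -1.66 ± 0.61, edgeR adjusted p = 0.121, and 0.0379 with the replicate block).

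Of the other isoforms, Cox8b had at most 3 counts in any library and Cox8c at most 10 in mESCs. Cox8a, the isoform of most tissues, was at 30.9 and 39.8 CPM in WT mESCs, 59.3, 30.01 and 89.3 in Atxn7l3-/- mESCs, 44.4, 70.2 and 169 in WT MEFs and 33.4, 37.2 and 29.6 in Atxn7l3-/- MEFs. Ndufa4l2, a gene induced by hypoxia, had 110 counts in WT MEF replicate 2 and 0 to 7 in the other MEF libraries. The 3 genes of the complex V c-ring encode the same mature protein. Atp5g3 had most of the counts, at 106 to 347 CPM over the 11 libraries, against 2.83 to 8.18 for Atp5g1 and 0.813 to 2.65 for Atp5g2, but Atp5g1 and Atp5g2 share 11.1% and 38.3% of their windows with other genes, so their levels are uncertain, while Atp5g3 shares 0%.

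**Figure D5:**
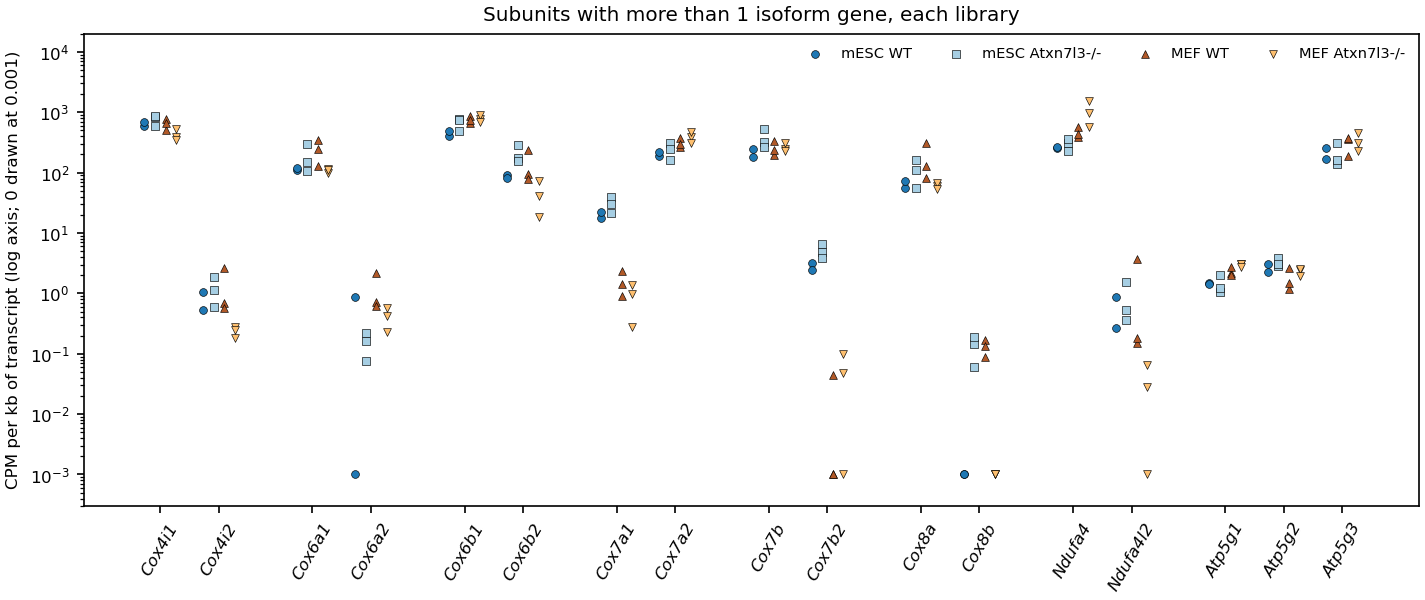
Level in CPM per kb of transcript (log axis, with 0 drawn at 0.001) of the members that belong to families with more than 1 isoform gene, in each library, by cell type and genotype. Cox7a1 and Cox7b2 are higher in mESCs than in MEFs in every library, and Cox4i1 and Atp5g3 lie far above Cox4i2, Atp5g1 and Atp5g2.

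The genotype effects of the 2 cell types were compared directly, with an interaction term fitted over the 11 libraries together. Of 100 members tested, 4 had a lower effect in MEFs than in mESCs and 0 a higher one, where 11.4% of 19326 genes were called by edgeR, 6.14% higher and 5.27% lower. They were Cox6b2 (log2 difference -2.89 ± 0.80), Ndufa13 (-2.21 ± 0.56), Atp5d (-2.003 ± 0.57) and Ndufb6 (-1.69 ± 0.41), with edgeR adjusted p of 0.0422, 0.0320, 0.0472 and 0.0286. With the replicate block 2 were called.

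Ndufa13, an accessory subunit of complex I also known as GRIM-19, was at 71.1 and 74.3 CPM in WT mESCs, 124, 69.5 and 137 in Atxn7l3-/- mESCs, 87.9, 176 and 122 in WT MEFs and 38.0, 26.3 and 62.2 in Atxn7l3-/- MEFs. In MEFs alone it missed the threshold (log2 fold change -1.61 ± 0.40, edgeR adjusted p = 0.0527), and it shares 28.5% of its windows with other genes, chiefly Tssk6. Atp5d was at 94.2 and 115 CPM in WT mESCs and 181, 103 and 151 CPM in Atxn7l3-/- mESCs. Over all members the median interaction was -0.57 for nuclear and 0.67 for mtDNA genes, against -0.09 for all genes, and all 7 mtDNA genes were above 0 with none called. Ndufa13 and Atp5d were named after their values were seen.

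WT MEFs and WT mESCs were compared to place these effects. Of 100 members, 11 were higher and 9 lower in MEFs, where 53.9% of all genes were called by edgeR, 26.8% higher and 27.1% lower. The shares of members called lay well under that of all genes. Complex I genes were called higher 6 times (Ndufa1, Ndufa3, Ndufa5, Ndufa8, Ndufb2 and Ndufs5) and lower once (Ndufv1, the NADH-binding flavoprotein).

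Complex III was divided. Uqcr10 was at 179 and 182 CPM in WT mESCs and 58.3, 108 and 98.6 CPM in WT MEFs (log2 fold change -1.03 ± 0.33, edgeR adjusted p = 0.0219). Cyc1, the cytochrome c1 subunit, was at 170 and 218 against 85.1, 129 and 121 CPM and Uqcrc1 at 304 and 376 against 163, 217 and 250 CPM, both called lower. Uqcrh, the hinge protein, went the other way, from 63.5 and 85.6 to 153, 221 and 164 CPM, and so did mt-Cytb (log2 fold change 1.21 ± 0.31, edgeR adjusted p = 0.00769).

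The 2 complex IV genes that were lower in MEFs are isoforms of restricted expression. Cox7a1, the isoform of heart and skeletal muscle, was at 7.75 and 9.68 CPM in WT mESCs and 1.04, 0.625 and 0.391 CPM in WT MEFs (log2 fold change -3.66 ± 0.63, edgeR adjusted p = 0.000808). Cox7b2 was at 1.70 and 1.32 CPM in WT mESCs and had 0, 0 and 1 counts in WT MEFs, under the floor (edgeR adjusted p = 0.000198). Cox6b1 and Cox8a were the complex IV genes called higher.

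Genes that serve the same pathway were examined as 3 lists. Of the list of mitochondrial biogenesis regulators, 0 of 10 tested were called in mESCs and 0 of 11 in MEFs by edgeR. Of all genes 6.96% and 9.41% were called, and the other 2 lists also lay below these shares. At an unadjusted p under 0.05 there were 5 and 3 of the regulators, where 29.8% and 32.4% of all genes were. Of the list for mtDNA transcription and RNA, 1 of 29 was lower in mESCs (Grsf1, an RNA-binding protein of mitochondrial RNA granules, log2 fold change -0.93 ± 0.20) and 1 of 29 was higher in MEFs (Pnpt1, an RNA-degrading exonuclease, 1.11 ± 0.25). Of the complex assembly list, 1 of 44 was higher in mESCs (Tmem70, needed for complex V assembly, 1.12 ± 0.25) and 1 of 44 was lower in MEFs (Cox14, a factor of complex IV assembly, -1.59 ± 0.33). The medians in MEFs were 0.27 for the RNA list and 0.00 for the assembly list, against -0.06 for all genes.

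Between WT cell types, 18 of 29 genes of the mtDNA RNA list were lower in MEFs and 0 higher, where 27.1% of all genes were lower and 26.8% higher, with a median log2 fold change of -1.05 against 0.00 over all genes. Tfam, the packaging and transcription factor of mtDNA, was at 79.1 ± 8.10 CPM in WT mESCs (SD, n = 2) and 33.8 ± 5.83 in WT MEFs (SD, n = 3), and Lrpprc, which stabilises mtDNA messengers, at 191 ± 20.3 and 72.4 ± 12.9. Among the biogenesis regulators 5 of 11 were lower, among them Nrf1 (67.4 ± 3.45 and 32.3 ± 4.67 CPM) and Gabpa (201 ± 36.1 and 84.8 ± 25.1), and 2 were higher, Esrra (16.2 ± 2.20 and 42.6 ± 14.3) and Ppargc1a (under the floor in mESCs and 5.39 ± 5.74 in MEFs). The assembly list had 12 higher and 13 lower of 44. The numbers called in the regulator and assembly lists, 7 of 11 and 25 of 44, lie near the 53.9% of all genes. Of the 7 mtDNA transcripts tested, mt-Cytb was called higher in MEFs and none lower. The log2 fold change was above 0 for 5 of them, -0.10 for mt-Nd1 and -1.26 for mt-Nd6 (edgeR adjusted p = 0.0659 for mt-Nd6, 0.0199 to 0.302 over its alternatives), with a median of 0.31.

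Of the 8 assembly factors of complex I, 0 were called in either cell type by edgeR. At an unadjusted p under 0.05 there were 2 in mESCs and 3 in MEFs, where 29.8% and 32.4% of all genes were. Ndufaf6 was at 9.39 and 10.7 CPM in WT mESCs and at 22.1, 15.5 and 22.3 CPM in Atxn7l3-/- mESCs, without overlap (log2 fold change 1.04 ± 0.30, edgeR adjusted p = 0.0747). In MEFs the 8 factors had a median log2 fold change of 0.07 and ranged from -1.49 (Ndufaf8) to 0.37 (Ndufaf7). There 3 of them were lower without overlap (37.5%, against 19.7% of genes tested). The associated protein Cox7a2l, which joins complexes III and IV, was at 44.7 and 47.5 against 86.1, 51.1 and 58.4 CPM in mESCs and at 57.8, 75.6 and 56.1 against 51.7, 53.1 and 41.1 CPM in MEFs, and was not called in either.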

How the data were processed

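The authors made poly(A)-selected stranded libraries, trimmed the reads and mapped them to mm10 with STAR, and the deposited tables hold raw counts per gene for each library, 1 table per cell type. The submitters' notes name bcl2fastq 2.17.1.14, cutadapt 1.10, STAR 2.5.3a, HTSeq 0.6.1p1 and DESeq2 1.16.1, without roles or strand setting. The deposited signal values, raw counts that the authors divided by a DESeq2 size factor per library and by transcript length, were used only for the study's limit of 10 normalized reads per kb. A further WT mESC dataset that the study excluded was not analysed here.

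Counts were filtered with filterByExpr, normalized by TMM and tested with edgeR 4.0.16 (R 4.3.3, quasi-likelihood), each cell type separately for genotype and all 11 libraries together for the interaction and the cell types. P-values were adjusted by Benjamini-Hochberg over all genes tested, and a call is an adjusted p of 0.05 or less. SE is the fold change divided by the root of the F statistic. Members failing the filter were Cox6a2, Cox8b and Cox8c in mESCs and mt-Co2, Cox7b2, Cox8b and Ndufa4l2 in MEFs. GC content, length and shared windows came from GENCODE M21 transcripts, promoters from RefSeq (GRCm38.p6). The fits were tested on simulated counts. The first test drew counts with each gene's own spread and changed genes 2- and 4-fold: in mESCs it recovered most of the 4-fold and few of the 2-fold changes, and in MEFs none of either. A second, easier setting was added after that result, with the spread smoothed over genes and 2- and 8-fold changes; it recovered most of the 8-fold changes and missed most of the 2-fold changes. Both are kept, and an uncalled member, in MEFs above all, is not shown to be unchanged.

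Deviations from group means correlated between same-numbered MEF libraries (r = 0.473, 0.161 and 0.24, against -0.262 to 0.0516 between different numbers). The labels give replicate numbers and no pairing, so the block by number served only as an alternative. The main MEF test has no block. In replicate 3 Ddx3y was at 0.244 CPM in WT and 201 CPM in Atxn7l3-/- MEFs. Named genes were all mtDNA genes, members called in a genotype comparison (up to 8 per complex), the highest member of each complex, isoform families, X-linked members and list members that passed. Members and lists were chosen with earlier results of these data known. Alternatives were RLE, upper-quartile and TMM without mtDNA genes, no filter or 10 counts in every library, DESeq2 1.42.0, GC or length trends removed (lowess span 0.3), the replicate block, 1 fit of all groups, the study's selection and each library left out. Tables used Python 3.11.15, pandas 2.3.3 and numpy 2.4.6. Replicates come from separate blastocysts or embryos.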

Additional observations from a re-analysis of the deposited data

Results flagged for a closer look

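For 4 of 100 members tested the genotype effects differed between MEFs and mESCs by the interaction term of the edgeR fit. Over all 19326 genes tested, 11.4% were called by this term, 5.27% lower. The difference (MEFs minus mESCs, log2) was -2.89 for Cox6b2, -2.21 for Ndufa13, -2.003 for Atp5d and -1.69 for Ndufb6. Over 18 alternatives each kept its sign, with ranges of -3.45 to -2.23, -2.60 to -1.92, -2.32 to -1.63 and -1.90 to -1.38, and was called in 11, 10, 8 and 11 of them. In each of the 4, the group means were higher than WT in Atxn7l3-/- mESCs and lower in Atxn7l3-/- MEFs.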

How the results depend on the processing

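Calls of members depended on the setting, and so did the medians of mtDNA members. In mESCs (1 higher, 0 lower), 0 were higher with 10 counts in every library, 1 fit of all 4 groups, RLE, upper quartile, the GC trend removed, or the length trend removed without or with the replicate block; DESeq2 gave 4 higher and 1 lower, and no filter 2 and 2. With a library left out, 0 to 9 were higher (9 without Atxn7l3-/- replicate 2) and 0 lower. In MEFs (0 higher, 4 lower), lower calls numbered 18 in 1 fit of all 4 groups and 23 with DESeq2 (each with 1 higher), 7 with no filter, 8 with the replicate block and 7 with the length trend removed with the replicate block; with a library left out, 0 to 1 were higher and 0 to 8 lower. Interaction calls (0 higher, 4 lower) were 20 lower with 10 counts in every library, 25 lower and 4 higher with DESeq2, 8 with upper quartile and 2 with the replicate block, and 0 to 20 lower with a library left out (20 without WT MEF replicate 1, 15 without Atxn7l3-/- mESC replicate 2 and 14 without Atxn7l3-/- MEF replicate 3). Between WT cell types (11 higher, 9 lower), DESeq2 gave 18 higher and upper quartile 14 lower, and leaving out a library gave 2 to 21 higher and 3 to 10 lower. The cause was not tested. Shares of all genes called under these alternatives are not given here for the interaction and the WT cell types. The mtDNA share differed by -0.739 to 0.0561 percentage points in mESCs (above 0 only without WT replicate 2) and by 0.066 to 0.419 in MEFs with a library left out. The mtDNA median in mESCs (-0.54) was -0.35 with the replicate block, -0.20 with the GC trend removed and -0.02 with both. It moved from 0.27 to -0.25 in MEFs with the GC trend removed, without or with the block, and the nuclear median to 0.03 in mESCs with the length trend removed and the block. Without members that share 10% or more of their windows, chosen after seeing the data, the nuclear medians were 0.29 and -0.39. In mESCs same-numbered libraries did not deviate together (r = 0.00777 and -0.172), and the block left 1 call, Cox6b2. Over the alternatives of named genes, 470 MEF values kept direction and side of the threshold, 25 passed it newly and 24 no longer did, and 490, 9 and 11 did so in mESCs. With 2 or 3 libraries a group, most 2-fold changes were missed in simulated counts under either spread, and all 4-fold ones in MEFs under the genes' own spread, so few calls in MEFs do not show that members were unchanged.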
